A study of Mus musculus with 24 samples.

Results

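The genes described here are 10 genes used as markers of the endothelial cells that line brain blood vessels: Cldn5, Cdh5, Pecam1, Kdr, Flt1, Tek, Abcb1a, Slco1a4, Ly6a and Ly6c1. They were taken by symbol from a table of gene counts of mouse hippocampus, which holds 47593 genes, and each of the 10 symbols matched 1 row. The table covers 24 male mice on the C57BL/6J background, 8 to 12 weeks old, with 1 library of poly(A) RNA from the hippocampus of each. There were 8 groups of 3 mice. WT mice and mice labelled Tob-KO, in which the anti-proliferative gene Tob1 is knocked out, were taken without training (naive) or at 15 min, 1 h or 3 h from contextual fear conditioning, in which mice receive inescapable electric shocks. The methods refer to an earlier publication, not used here, for how the knockout allele was made. The libraries held 28847989 to 41595972 counts, and levels are given as CPM, counts scaled to library size after TMM normalization, mean ± SD over mice. In the libraries labelled Tob-KO, Tob1 itself was measured at 59.7 ± 6.62 CPM (n = 12, 52.1 to 68.3), against 40.4 ± 3.39 CPM (n = 12, 33.9 to 44.5) in WT. The label alone would lead to a lower level, but a count over the whole gene cannot tell an intact transcript from an altered one. Whether the label holds was not tested, so directions between genotypes refer to the libraries as labelled.

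Endothelial cells of the brain form the blood-brain barrier. Tight and adherens junctions seal neighbouring cells to each other, transporters in the cell membrane carry drugs, organic anions and nutrients across or back into the blood, and receptors for VEGF and angiopoietins keep the vessels alive and quiescent. These cells are a small part of hippocampal tissue, and their transcripts are therefore a minor share of a whole-tissue library. In bulk tissue, fewer endothelial cells and less of a transcript per endothelial cell cannot be told apart.

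The promoters are shown for the 3 genes with the largest differences 15 min after conditioning and for 1 gene of opposite sign, since their starts differ in base composition. Each line holds the 250 bases before an annotated start, 5′ to 3′ on the strand of the gene, from RefSeq on GRCm38.p6. Capitals mark the GC box, GGGCGG read on either strand, which here appears as its complement CCGCCC. Entries were found for 7 of the 10 genes, and the start listed for Abcb1a lies upstream of the gene model used for its coordinates here. Ly6c1 has another listed start, with the window chr15:75048664-75048913, which is not shown. Bases C and G make up 48.4% of the window shown and 53.2% of the other. Cldn5 lies on the forward strand at chr16:18776597-18776846, Kdr on the reverse strand at chr5:75978456-75978705, Flt1 on the reverse strand at chr5:147726012-147726261 and Ly6c1 on the reverse strand at chr15:75048838-75049087.
Cldn5: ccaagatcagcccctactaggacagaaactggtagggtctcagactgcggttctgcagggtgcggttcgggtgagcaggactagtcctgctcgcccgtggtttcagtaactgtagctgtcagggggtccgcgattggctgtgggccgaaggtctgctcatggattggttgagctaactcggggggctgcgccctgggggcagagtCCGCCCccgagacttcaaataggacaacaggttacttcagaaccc
Kdr: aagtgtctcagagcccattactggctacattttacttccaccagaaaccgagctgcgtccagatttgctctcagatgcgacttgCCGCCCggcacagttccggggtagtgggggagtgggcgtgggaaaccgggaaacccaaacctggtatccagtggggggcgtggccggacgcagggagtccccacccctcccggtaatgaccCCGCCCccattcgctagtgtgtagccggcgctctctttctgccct
Flt1: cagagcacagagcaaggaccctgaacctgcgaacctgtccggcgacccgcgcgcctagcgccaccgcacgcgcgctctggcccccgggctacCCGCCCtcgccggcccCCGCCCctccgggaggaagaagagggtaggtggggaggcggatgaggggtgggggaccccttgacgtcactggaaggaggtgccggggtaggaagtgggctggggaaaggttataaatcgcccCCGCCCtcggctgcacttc
Ly6c1: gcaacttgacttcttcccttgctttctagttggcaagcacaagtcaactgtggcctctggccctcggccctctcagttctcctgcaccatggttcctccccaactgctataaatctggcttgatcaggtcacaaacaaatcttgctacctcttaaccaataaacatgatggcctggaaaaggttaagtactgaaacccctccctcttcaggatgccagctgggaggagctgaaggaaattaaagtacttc

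The GC box was matched 1 time before Cldn5, 2 times before Kdr and 3 times before Flt1, and 0 times before Tek, Abcb1a, Slco1a4 and either start of Ly6c1. It is held by 32.7% of all 32851 promoter windows of this length. None of the 6 matches overlapped a match of another motif searched. The other motifs were AGGAAG of ETS factors (29.5% of all windows), TGACG of CREB (17.8%), CACCC of KLF factors (52.0%), AGAACA of the glucocorticoid receptor (16.1%) and ACAAT of SOX factors (27.7%), each on both strands. AGGAAG was matched before Flt1 (2), Abcb1a (2), Slco1a4 (1) and the Ly6c1 start not shown (3). CACCC was matched before each of these genes, for Ly6c1 only at the start not shown. TGACG was matched only before Flt1 (2), AGAACA only before Tek (1) and ACAAT before Tek (2) and Slco1a4 (3). Bases C and G made up 70.4% of the window of Flt1, 61.6% of Kdr and 59.6% of Cldn5. The shares were 53.2% and 48.4% for the starts of Ly6c1, 51.2% for Tek, 40.4% for Abcb1a and 39.2% for Slco1a4, and the median of all windows was 52.4%. Which motif to show was chosen after the expression values had been seen, and a match is a description of letters, not a site in use.

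All 10 genes were expressed in every library, from 231 counts for Tek to 3070 counts for Flt1. Per kilobase of annotated exon, Cldn5 had the highest level, 15.4 ± 6.15 CPM per kb (n = 24), and Kdr the lowest, 1.51 ± 0.44 CPM per kb. The order between them was Ly6c1 (10.6), Ly6a (10.3), Abcb1a (5.81), Slco1a4 (5.71), Flt1 (4.59), Cdh5 (2.96), Tek (2.81) and Pecam1 (2.57), each as mean CPM per kb. The steps from Ly6a to Abcb1a, from Slco1a4 to Flt1, from Flt1 to Cdh5 and from Pecam1 to Kdr exceeded the larger SD of the pair. The steps from Cldn5 to Ly6c1, Ly6c1 to Ly6a, Abcb1a to Slco1a4, Cdh5 to Tek and Tek to Pecam1 did not. The order depends on the length used: over the longest coding transcript, Ly6c1 came first with 21.1 CPM per kb and Cldn5 second with 15.4. Cldn5 also varied most between libraries, its highest library being 3.86 times its lowest, while this ratio was 1.79 for Slco1a4 and 1.90 for Ly6c1.

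Defining markers of other cells were present too, as whole hippocampus contains them. The summed level of 14 mural cell genes was 206 to 348 CPM over the naive and 15-min libraries, close to the 195 to 375 CPM of the 10 endothelial genes. Choroid plexus genes varied most: the sum of 13 such genes ran from 31.4 to 5047 CPM, and all 3 WT libraries at 15 min were low, at 31.4 to 51.7 CPM. Plvap, a marker of fenestrated vessels such as those of choroid plexus, was at 3.84 to 8.10 CPM in all groups.

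At 15 min after conditioning, transcripts of the tight junction protein Cldn5 and of the VEGF receptors Kdr and Flt1 were higher than in naive mice, and so was the adhesion molecule Pecam1. In Cldn5 the level was 1.81 times the naive level, in Kdr 1.57 times, in Flt1 1.35 times and in Pecam1 1.28 times (edgeR quasi-likelihood test, 6 against 6 mice of both genotypes). Of the 10 genes these 4 passed a false discovery rate (FDR) of 0.05. Over all 19500 genes tested, 4.7% passed, 1.68% with a higher level. No gene of the 10 was called lower, and the median log2 fold change of the 10 was 0.30, beside 0.003 over all genes. At an unadjusted p under 0.05, 7 of the 10 were higher, where 9.44% of all genes were.

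Cldn5 encodes claudin-5, the main sealing protein of tight junctions in brain vessels. It is a gene of a single exon block at 18776847 to 18778262 on chromosome 16 of GRCm38. Its level was 21.1, 17.3 and 21.1 CPM in WT naive mice and 22.1, 49.0 and 37.8 CPM in WT mice at 15 min. In the libraries labelled Tob-KO, it was 17.7, 17.2 and 17.9 CPM when naive and 27.1, 31.5 and 35.6 CPM at 15 min. All 6 libraries at 15 min were above all 6 naive ones, although the lowest, WT replicate 1, exceeded the highest naive library by little. It had a log2 fold change of 0.85 (SE 0.16, edgeR adjusted p = 0.0035). Across fits that left out each library in turn it stayed between 0.73 and 0.96 and passed in all 24.

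Kdr encodes VEGF receptor 2, the main signalling receptor for VEGF on endothelial cells. It measured 13.8, 9.11 and 10.2 CPM in WT naive mice and 15.6, 23.8 and 15.2 CPM in WT mice at 15 min. The naive libraries labelled Tob-KO had 11.1, 14.7 and 13.9 CPM, and those at 15 min had 16.4, 20.3 and 22.9 CPM. Here too the 15-min and naive libraries did not overlap. For Kdr the log2 fold change was 0.65 (SE 0.12, edgeR adjusted p = 0.0035).

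Flt1 encodes VEGF receptor 1, which binds VEGF tightly and, in its soluble form, acts as a decoy. Its values were 66.0, 48.7 and 58.2 CPM in WT naive mice and 75.5, 104.8 and 76.1 CPM at 15 min. In libraries labelled Tob-KO they were 54.4, 58.6 and 60.5 CPM when naive and 67.2, 69.6 and 74.1 CPM at 15 min. Again every 15-min library was above every naive one. This gave a log2 fold change of 0.43 (SE 0.080, edgeR adjusted p = 0.00391). Cldn5, Kdr and Flt1 were the 3 of the 10 genes without overlap, and 0.697% of all genes were higher at 15 min without overlap.

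Pecam1 encodes CD31, an adhesion molecule at contacts between endothelial cells. It lies on chromosome 11, as does Tob1, 12.4 Mb away. WT mice had 18.0, 11.6 and 13.9 CPM when naive and 16.2, 25.2 and 19.5 CPM at 15 min. Libraries labelled Tob-KO had 14.2, 15.1 and 17.9 CPM when naive and 17.8, 18.3 and 19.7 CPM at 15 min, so the groups overlapped. Pecam1 had a log2 fold change of 0.36 (SE 0.10, edgeR adjusted p = 0.0432). This call was lost in 9 of the 24 fits without 1 library, with adjusted p of 0.0511 to 0.128 and log2 fold changes of 0.27 to 0.39. The libraries were WT naive replicates 2 and 3, WT 15 min replicates 2 and 3, Tob-KO naive replicates 1 and 2, Tob-KO 15 min replicates 1 and 3, and Tob-KO 1 h replicate 1.

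The other 6 genes did not pass at 15 min. Cdh5, the cadherin of endothelial adherens junctions, had a log2 fold change of 0.30 (SE 0.12, edgeR adjusted p = 0.13). Tek, the angiopoietin receptor TIE2, had 0.30 (SE 0.10, adjusted p = 0.0899). Abcb1a, the drug efflux pump P-glycoprotein, had 0.27 (SE 0.095, adjusted p = 0.101), and Slco1a4, an organic anion transporter, had 0.15 (SE 0.074, adjusted p = 0.267). The 2 genes of the Ly6 family, which encode small surface proteins anchored by lipid, had differences of the opposite sign. They were -0.12 (SE 0.12, adjusted p = 0.647) for Ly6a and -0.12 (SE 0.10, adjusted p = 0.543) for Ly6c1.

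**Figure D1:**
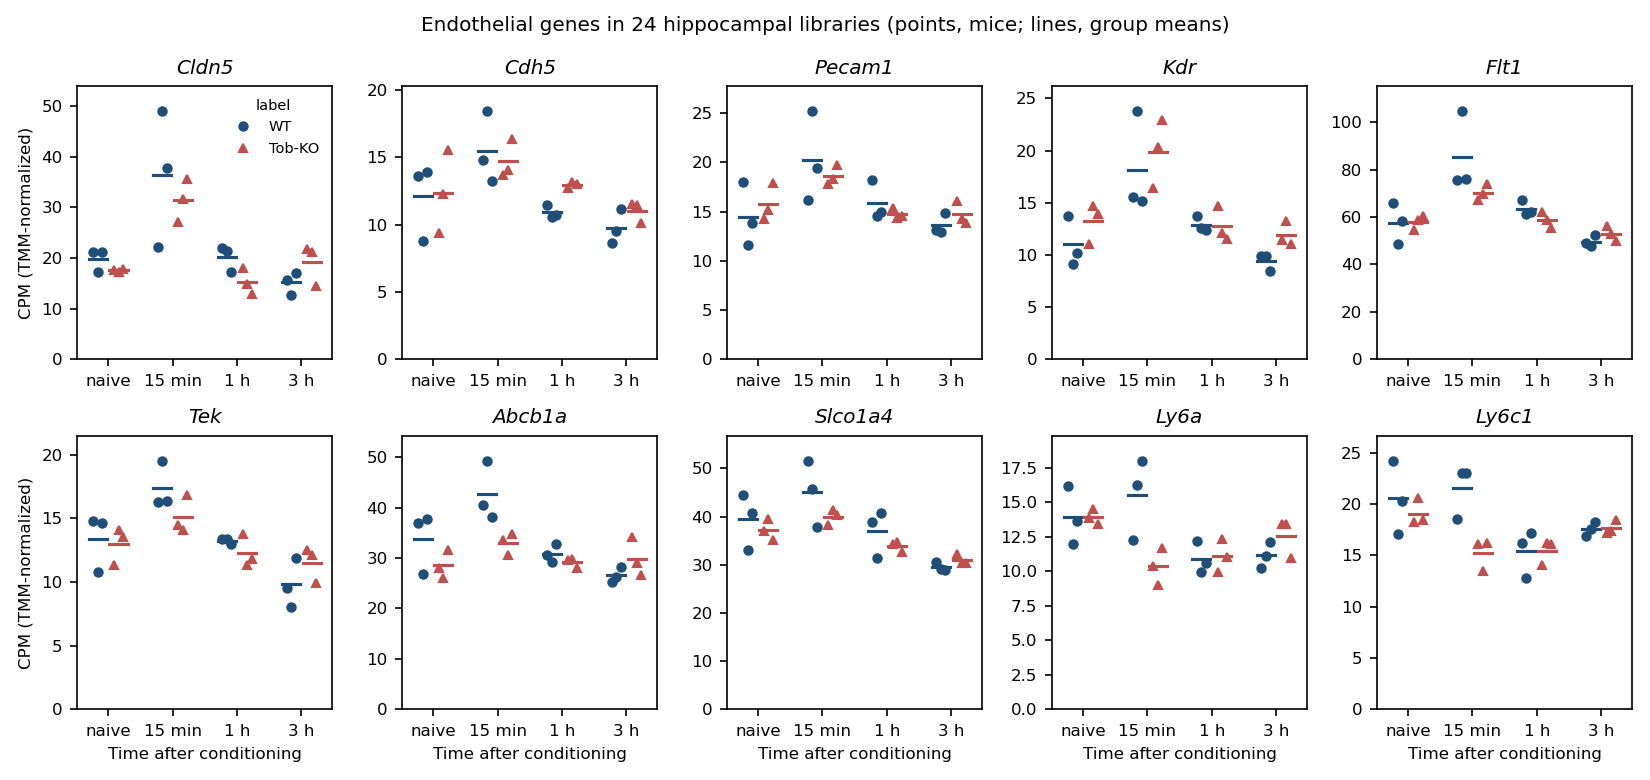
Level of each of the 10 genes in each of the 24 libraries, in CPM after TMM normalization, against time after conditioning; circles are WT mice, triangles are mice labelled Tob-KO, and short lines are means of 3 mice. The 6 libraries at 15 min are above the 6 naive ones for Cldn5, Kdr and Flt1, and WT 15 min replicate 2 is the highest library of all for 7 of the 10 genes.

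WT 15 min replicate 2 gave the highest value of all 24 libraries for Cldn5, Cdh5, Pecam1, Kdr, Flt1, Tek and Abcb1a. Without it, the log2 fold changes at 15 min were 0.73 for Cldn5 (edgeR adjusted p = 0.0117), 0.55 for Kdr (adjusted p = 0.0103) and 0.33 for Flt1 (adjusted p = 0.00521). With the choroid plexus score as a covariate, an alternative added after the data had been seen, they were 0.83, 0.70 and 0.43, and the same number of the 10 genes, 4, passed.

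Within each genotype, the 3 against 3 comparisons at 15 min called none of the 10 genes. In WT mice, the quasi-likelihood test called 0% of the 18349 genes tested. At an unadjusted p under 0.05, 6 of the 10 genes were higher in WT, where 2.74% of all genes were, and DESeq2 called 1 of the 10 and 38 of all genes. The log2 fold changes were 0.87 (SE 0.24) for Cldn5, 0.72 (SE 0.20) for Kdr and 0.57 (SE 0.14) for Flt1, each with an edgeR adjusted p of 0.786. In WT, 5 of the 10 genes were higher at 15 min without overlap, where 5.65% of all genes were. These were Cldn5, Kdr, Flt1, Abcb1a and Tek.

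In the libraries labelled Tob-KO, the same test called 0.0272% of all genes at 15 min. There, 4 of the 10 were higher at an unadjusted p under 0.05, where 5.69% of all genes were, and 2 were lower, where 7.47% of all genes were. DESeq2 called 3 of the 10 and 389 of all genes. Cldn5 had 0.84 (SE 0.10, edgeR adjusted p = 0.0626), Kdr 0.59 (SE 0.15, adjusted p = 0.24) and Flt1 0.28 (SE 0.064, adjusted p = 0.209), each as a log2 fold change. Without overlap, 4 of the 10 were higher than naive (Cldn5, Kdr, Flt1 and Tek), where 9.21% of all genes were. The 2 genes that were lower without overlap were Ly6a and Ly6c1, where 10.6% of all genes were lower.

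The levels at 1 h were then compared with those at 15 min. This comparison with 15 min was chosen after the comparisons with naive mice had been seen, and it shares the 15-min libraries with them. From 15 min to 1 h, Cldn5, Kdr and Flt1 fell. Cldn5 at 1 h was 0.523 times its level at 15 min, Kdr 0.677 times and Flt1 0.786 times. These 3 of the 10 passed the FDR limit, where 0.513% of all genes passed and 0.221% were lower. At an unadjusted p under 0.05, 9 of the 10 were lower at 1 h, where 6.53% of all genes were. The median log2 fold change of the 10 was -0.34, beside -0.011 over all genes.

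Cldn5 had 22.0, 21.3 and 17.3 CPM in WT mice at 1 h and 17.9, 14.9 and 12.9 CPM in libraries labelled Tob-KO. These values lay in or below the range of naive mice, 17.2 to 21.1 CPM, apart from the highest 2. The log2 fold change from 15 min to 1 h was -0.93 (SE 0.16, edgeR adjusted p = 0.00713), and it passed in all 24 fits without 1 library. For Kdr, at 13.7, 12.6 and 12.4 CPM in WT and 14.7, 12.1 and 11.5 CPM in libraries labelled Tob-KO, it was -0.56 (SE 0.12, adjusted p = 0.0306). Flt1 measured 67.0, 61.2 and 62.2 CPM in WT and 62.2, 58.7 and 55.4 CPM in libraries labelled Tob-KO, and fell by 0.35 on the log2 scale (SE 0.080, adjusted p = 0.0433). At 1 h, 5 of the 10 genes (Cldn5, Cdh5, Kdr, Flt1 and Tek) lay below their 15-min values without overlap, where 0.426% of all genes did.

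The calls of Kdr and Flt1 between 15 min and 1 h were the less firm ones. That of Kdr was lost in 6 of 24 fits without 1 library, with adjusted p of 0.0552 to 0.101 and log2 fold changes of -0.58 to -0.46. These left out WT 15 min replicate 2, WT 1 h replicates 2 and 3, Tob-KO 15 min replicate 3 and Tob-KO 1 h replicates 2 and 3. That of Flt1 was lost in 14 of 24, with adjusted p of 0.0520 to 0.122 and log2 fold changes of -0.37 to -0.25. They left out 1 of WT naive replicate 3, WT 15 min replicates 2 and 3, WT 1 h replicates 1, 2 and 3, WT 3 h replicate 3, Tob-KO naive replicate 1, Tob-KO 15 min replicate 3, Tob-KO 1 h replicates 1, 2 and 3, or Tob-KO 3 h replicates 2 and 3. Flt1 was also not called with the choroid plexus score as a covariate (adjusted p = 0.0827).

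For the other 7 genes the log2 fold changes from 15 min to 1 h were all below 0, with edgeR adjusted p above the limit. They were -0.35 (SE 0.12, adjusted p = 0.177) for Cdh5 and -0.34 (SE 0.10, adjusted p = 0.13) for Pecam1, the junction genes. Tek had -0.35 (SE 0.10, adjusted p = 0.121). The transporters Abcb1a and Slco1a4 had -0.33 (SE 0.096, adjusted p = 0.115) and -0.26 (SE 0.074, adjusted p = 0.0989). Ly6a had -0.22 (SE 0.12, adjusted p = 0.443) and Ly6c1 -0.24 (SE 0.10, adjusted p = 0.283).

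Against naive mice, 1 of the 10 genes was called 1 h after conditioning. It was Ly6c1, the antigen Ly-6C of mouse endothelium and some leukocytes. WT naive mice had 24.3, 17.1 and 20.4 CPM and WT mice at 1 h 16.2, 12.8 and 17.2 CPM. In libraries labelled Tob-KO, the values were 18.2, 20.6 and 18.4 CPM when naive and 14.1, 16.2 and 16.2 CPM at 1 h. Over both genotypes, the groups overlapped by 1 naive library, WT replicate 2. The log2 fold change was -0.36 (SE 0.10, edgeR adjusted p = 0.0325), a level 0.779 times the naive one. It was the only 1 of the 10 genes called, where 6.15% of all genes were called and 3.71% were lower. For 10 genes, a count of 1 is near the share of all genes.

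The call of Ly6c1 was lost in 9 of 24 fits without 1 library, with adjusted p of 0.0505 to 0.0879 and log2 fold changes of -0.37 to -0.29. The libraries were WT naive replicates 1 and 3, all 3 replicates of WT 1 h, all 3 of Tob-KO naive, and Tob-KO 1 h replicate 1. Ly6a, known as Sca-1, lies near Ly6c1 on chromosome 15 and had a similar difference of -0.34 (SE 0.12, adjusted p = 0.111). Its values ran from 9.91 to 12.3 CPM at 1 h and from 11.9 to 16.1 CPM in naive mice. The other 8 genes had log2 fold changes between -0.12 for Slco1a4 and 0.089 for Kdr at 1 h.

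Reads of Ly6c1 can match related genes. Of the 50-base windows of its transcript, 36.7% also occur in another gene, mainly Ly6c2, which had 0 to 3 counts in each library. For Ly6a this share was 10.04%, and the gene that shared most was Ly6c1, with 4.4% of the windows. For Abcb1a the share was 17.0%, mainly with Abcb1b, which had 106 to 174 counts. For Slco1a4 it was 2.73%, and for the other 6 genes 0%.

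At 3 h after conditioning, none of the 10 genes passed the test against naive mice. The quasi-likelihood test called 0% of all 19500 genes in this comparison. All 10 log2 fold changes were below 0, with a median of -0.18 beside -0.0068 over all genes. At an unadjusted p under 0.05, 3 of the 10 were lower, where 5.13% of all genes were, and DESeq2 called 1, Slco1a4, among 4 of all genes. Mural cell genes were below 0 in 13 of 14, with a median of -0.12 and a summed level of 208 to 255 CPM, against 206 to 271 CPM in naive mice. Blood cell genes were below 0 in 7 of 7, with a median of -0.33. The part of these cells was not tested. Slco1a4 transports organic anions, thyroid hormone among them, at the blood-brain barrier. Its level was 44.5, 33.1 and 40.8 CPM in WT naive mice and 30.6, 29.1 and 28.9 CPM at 3 h. In libraries labelled Tob-KO it was 37.0, 39.6 and 35.0 CPM when naive and 32.1, 30.4 and 30.3 CPM at 3 h. All 6 libraries at 3 h lay below all 6 naive ones, as was so for 0.431% of all genes. The log2 fold change was -0.34 (SE 0.075, unadjusted p = 0.000129, edgeR adjusted p = 0.365).

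Tek had a log2 fold change of -0.31 at 3 h (SE 0.10, edgeR adjusted p = 0.471), with 8.02 to 12.5 CPM at 3 h and 10.8 to 14.8 CPM in naive mice. For Flt1 it was -0.17 (SE 0.080, adjusted p = 0.543) and for Cdh5 -0.24 (SE 0.12, adjusted p = 0.56). In WT mice alone, 5 of the 10 genes were lower at an unadjusted p under 0.05, where 2.17% of all genes were. In libraries labelled Tob-KO 1 was, where 5.07% of all genes were. No gene of all those tested passed the FDR limit in either genotype at 3 h. At 1 h within each genotype, none of the 10 passed by edgeR or DESeq2, where 0.148% of all genes in WT and 0.671% in libraries labelled Tob-KO passed by edgeR. In each genotype Ly6a and Ly6c1, 2 of the 10, were lower at 1 h at an unadjusted p under 0.05, where 5.58% of all genes in WT and 8.45% in libraries labelled Tob-KO were.

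**Figure D2:**
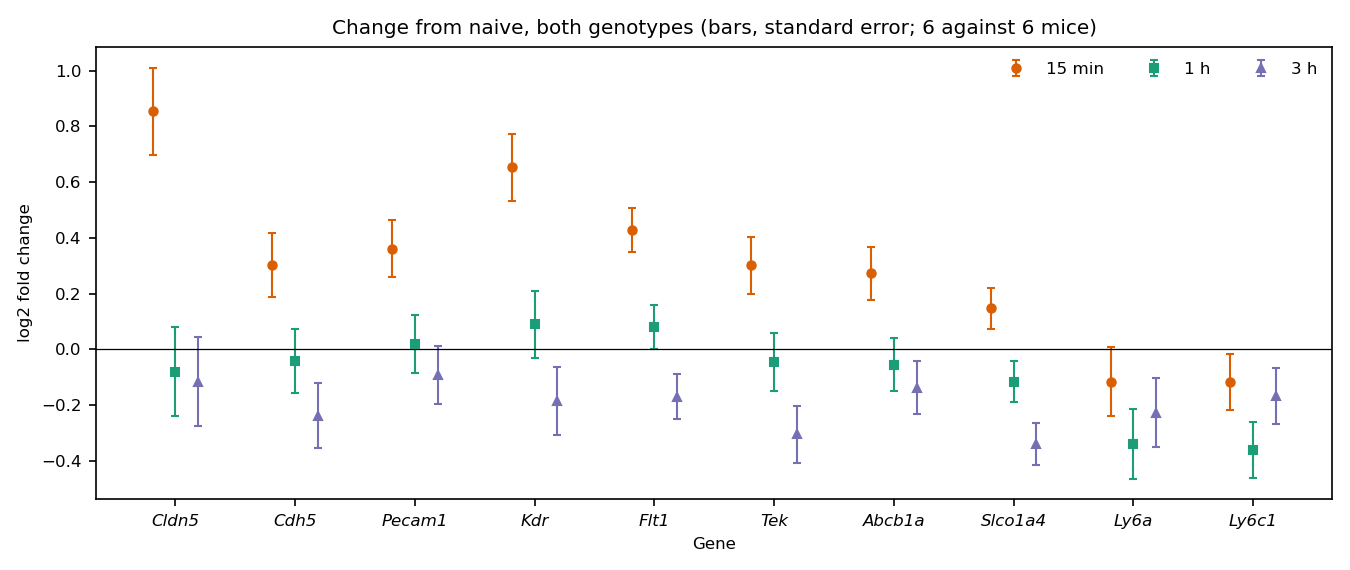
Log2 fold change of each of the 10 genes against naive mice at 15 min (circles), 1 h (squares) and 3 h (triangles) after conditioning, over both genotypes; bars are standard errors from the fit to 24 libraries. Cldn5 at 0.85, Kdr at 0.65 and Flt1 at 0.43 stand highest at 15 min, Ly6a and Ly6c1 lie below 0 at all 3 times, and all 10 genes lie below 0 at 3 h.

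Ratios of 2 genes within a library were also taken. The ratio of Cldn5 to Ly6c1, both in CPM, had a median of 0.97 in the 6 naive libraries (0.834 to 1.04) and of 1.90 at 15 min (1.19 to 2.34). It was 1.14 at 1 h and 0.931 at 3 h. The ratio of Flt1 to Slco1a4 had a median of 1.48 in naive mice, 1.80 at 15 min, 1.71 at 1 h and 1.69 at 3 h. The 15-min and naive values of this ratio overlapped, those of Cldn5 to Ly6c1 did not. Over both genotypes, Cldn5 had the largest rise of the endothelial genes at 15 min, and Ly6c1 had a difference of opposite sign. The separation of their ratio therefore follows in large part from the values given above. Ratios of other pairs were not compared, and the cause of the difference was not tested.

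Other lists of genes linked to vessels were compared at 15 min as well. In bulk tissue, their transcripts can also come from other cells. Over all genes, 4.7% were called at 15 min and 1.68% were higher. Of 28 other genes of endothelial identity, 6 were called higher and 0 lower, with a median log2 fold change of 0.26. Examples were the transmembrane receptor Cd93 (0.65, SE 0.12, edgeR adjusted p = 0.00391), Itm2a (0.41, SE 0.077, adjusted p = 0.00419), and the ETS factors Ets1 (0.39, SE 0.077, adjusted p = 0.00551) and Fli1 (0.54, SE 0.12, adjusted p = 0.00893). Of 24 genes of barrier transport and junctions, 5 were called higher and 1 lower. The monocarboxylate transporter Slc16a1 rose (0.50, SE 0.065, adjusted p = 0.000163), as did the junction gene Jam2 (0.20, SE 0.045, adjusted p = 0.0111). The lipid transporter Mfsd2a fell by 0.58 on the log2 scale (SE 0.11, adjusted p = 0.0035). The median of that list was 0.036.

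In the VEGF and angiopoietin pathway, 2 of 16 genes were called higher, the ligands Apln (0.35, SE 0.092, edgeR adjusted p = 0.0278) and Vegfb (0.18, SE 0.049, adjusted p = 0.034). Of 20 genes of Notch and Wnt signalling, 3 were called higher. They were the Wnt effector Lef1 (0.52, SE 0.12, adjusted p = 0.013), the Wnt inhibitor Apcdd1 (0.29, SE 0.073, adjusted p = 0.0218) and the ligand Wnt7a (0.34, SE 0.094, adjusted p = 0.038). Of 14 genes of endothelial activation and adhesion 11 were tested and 1 was called, the plasminogen activator Plat (0.21, SE 0.052, adjusted p = 0.0188). At 1 h against naive mice, Slc16a1 (0.39), Tjp1 (0.15), Wnt7a (0.34) and Plat (0.27) were called higher and Notch1 (-0.22) lower, each as a log2 fold change. From these lists 28, 24, 16, 20 and 11 genes were tested, the last out of 14, and 6.15% of all genes were called in this comparison.

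From 15 min to 1 h, 5 genes of these lists were called, all lower, where 0.513% of all genes were called and 0.221% were lower. They were Foxq1 (-0.95, SE 0.17, edgeR adjusted p = 0.0148), Ets1 (-0.45, SE 0.077, adjusted p = 0.00926), Egfl7 (-0.44, SE 0.088, adjusted p = 0.0248), Notch1 (-0.31, SE 0.058, adjusted p = 0.0136) and Dll4 (-0.82, SE 0.17, adjusted p = 0.0306). Foxq1 is a transcription factor of barrier endothelium, Egfl7 is a secreted endothelial protein, and Dll4 is a ligand of Notch1.

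Markers of other cells of the vessel wall, of blood and of brain tissue were compared at 15 min too. Of 14 mural cell genes, which mark pericytes and smooth muscle, 3 were called higher at 15 min, with a list median of 0.31. These were Pdgfrb (0.36, SE 0.069, edgeR adjusted p = 0.00452), Notch3 (0.31, SE 0.084, adjusted p = 0.0312) and Rgs5 (0.27, SE 0.072, adjusted p = 0.0338). Their summed level was 263 to 348 CPM at 15 min and 206 to 271 CPM in naive mice, and Pdgfrb was also called lower from 15 min to 1 h (-0.37, SE 0.069, adjusted p = 0.0173). Of 7 blood cell genes 0 were called at 15 min by edgeR, 5 were higher at an unadjusted p under 0.05, and their sum was 41.1 to 134 CPM against 44.3 to 72.7 CPM. In WT mice this sum was 69.6 to 134 CPM at 15 min and 50.1 to 72.7 CPM when naive. In libraries labelled Tob-KO it was 41.1 to 56.1 CPM at 15 min, on both sides of the naive 44.3 to 48.7 CPM. Of 11 genes of fibroblasts and meninges 1 was called, Slc6a13 (0.88, SE 0.26, adjusted p = 0.0499), and their sum of 212 to 293 CPM lay within the naive range of 95.2 to 346 CPM. Of 7 astrocyte genes 2 were called, Aqp4 (0.33, SE 0.051, adjusted p = 0.00131) and Gja1 (0.23, SE 0.039, adjusted p = 0.00224). Of 8 neuronal genes, 8 microglial genes, 6 oligodendrocyte genes and 13 choroid plexus genes, 0 were called by edgeR. At an unadjusted p under 0.05, the counts were 0, 3, 1 and 0. Mean log2 CPM of a list, each gene centred over all libraries, was also compared from naive to 15 min. Microglial genes went from -0.032 to 0.085 in WT and from -0.014 to 0.11 in libraries labelled Tob-KO. Astrocyte genes went from -0.0091 to 0.092 and from -0.076 to 0.050. Fibroblast genes went from -0.12 to 0.21 and from -0.31 to 0.16. Neuronal genes went from -0.026 to -0.051 and from 0.00041 to 0.015. The part of these cells in the levels of the 10 genes was not tested.

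**Figure D3:**
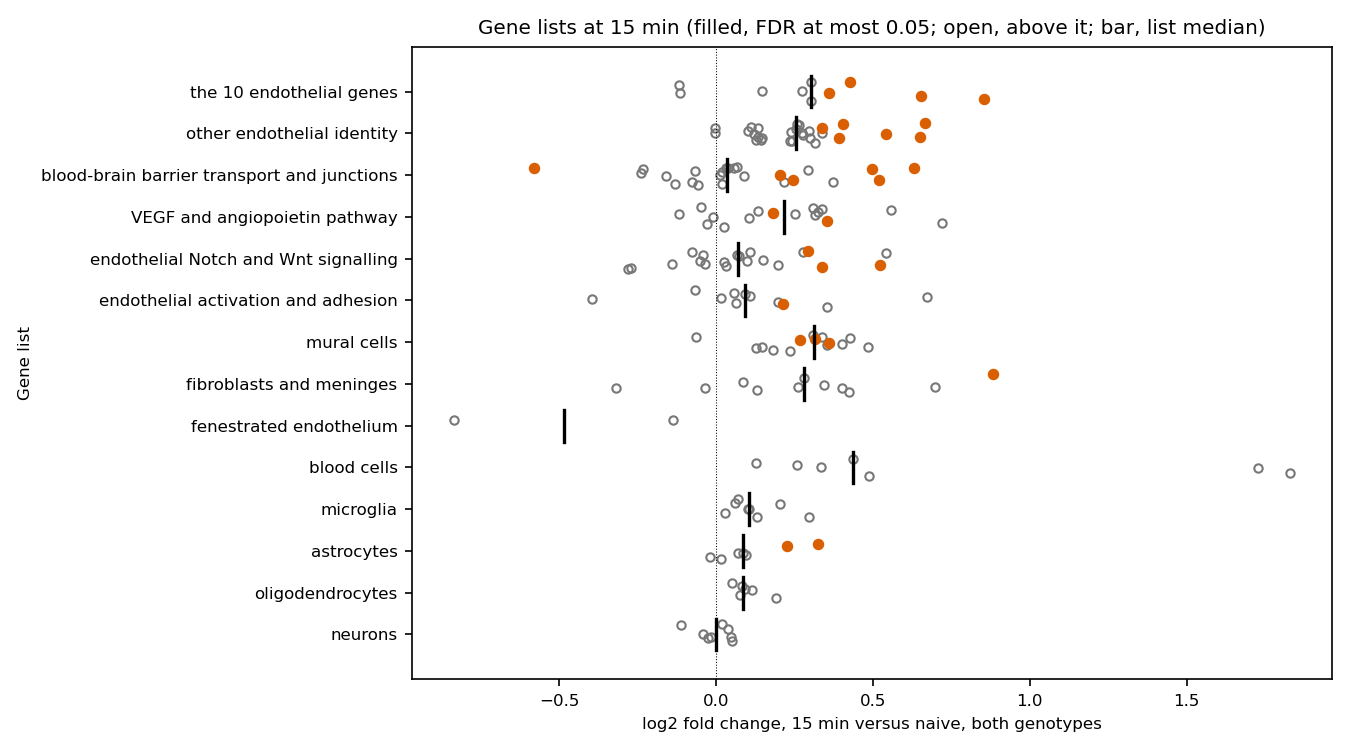
Log2 fold change at 15 min against naive mice, over both genotypes, for the 10 endothelial genes and 13 other gene lists; each point is a gene, filled where its FDR is at most 0.05, and each black bar is the median of a list. The medians of the 10 genes (0.30), other endothelial identity (0.26) and mural cells (0.31) lie to the right of neurons (0.001). Filled points also occur among barrier, signalling, fibroblast and astrocyte genes, so they are not confined to endothelial identity and mural cells.

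Between genotypes, none of the 10 genes was called at any time point with the limits of the study, which include a fold change of at least 2 (edgeR exact test, 3 against 3 mice). The shares of all genes called were 0.0218% in naive mice, 0.555% at 15 min, 0.033% at 1 h and 0.0274% at 3 h. Unadjusted p was under 0.05 for 0, 4, 2 and 1 of the 10, in that order, and for 4.04%, 8.05%, 5.34% and 3.97% of all genes. With the same fold limit, DESeq2 and the quasi-likelihood test called 0 at each. The median log2 fold changes of the 10, libraries labelled Tob-KO minus WT, were -0.020 in naive mice, -0.20 at 15 min, -0.090 at 1 h and 0.17 at 3 h. Over all genes they were 0.0057, -0.0058, -0.0013 and -0.0018, in that order.

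The differences at 15 min were lowest for the Ly6 genes. Ly6c1 had 18.5, 23.0 and 23.1 CPM in WT mice and 16.1, 13.5 and 16.2 CPM in libraries labelled Tob-KO, without overlap. The log2 fold change was -0.49 (SE 0.12 from the quasi-likelihood fit, edgeR exact test adjusted p = 0.0344), so it passed the FDR limit but not the fold limit. Without the fold limit it was the 1 gene of the 10 called, where 0.746% of all genes were. By DESeq2 the adjusted p was 0.0384, and by the quasi-likelihood test it was 0.448. Leaving out 1 library gave adjusted p from 0.0069 to 0.322. It was above the limit without WT replicate 2 (0.179), WT replicate 3 (0.322), Tob-KO replicate 2 (0.246) or Tob-KO replicate 3 (0.105).

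Ly6a had 12.3, 16.2 and 18.0 CPM in WT mice at 15 min and 10.4, 8.999 and 11.7 CPM in libraries labelled Tob-KO, also without overlap. Its log2 fold change was -0.58 (SE 0.15, edgeR exact test adjusted p = 0.0786). Abcb1a had -0.37 (SE 0.10, adjusted p = 0.11), with 40.5, 49.4 and 38.1 CPM in WT mice and 33.6, 30.6 and 34.9 CPM in libraries labelled Tob-KO. Flt1 had -0.28 (SE 0.12, adjusted p = 0.498). These 4 genes were lower without overlap, where 6.32% of all genes were, and lower at an unadjusted p under 0.05, where 3.09% of all genes were. Cldn5 differed by -0.21 (SE 0.24) and Kdr by 0.13 (SE 0.18) at 15 min, less than 1 standard error each.

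Other lists at 15 min also differed between the genotypes. All 13 choroid plexus genes were higher in libraries labelled Tob-KO with the limits of the study, with a median log2 fold change of 4.06. Of 7 blood cell genes 2 were called lower, with a median of -0.95, and their sum was 69.6 to 134 CPM in WT mice and 41.1 to 56.1 CPM in libraries labelled Tob-KO. The 14 mural cell genes had a median of -0.30 and 0 calls, with 4 lower at an unadjusted p under 0.05. The 6 oligodendrocyte genes had 0 calls and a median of 0.25, with 6 of 6 above 0 and 5 higher at an unadjusted p under 0.05. The part of these cells in the differences of the Ly6 genes was not tested.

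At the other times, single genes had unadjusted p under 0.05 and adjusted p above the limit. At 1 h Cldn5 had a log2 fold change of -0.40 (SE 0.13, edgeR exact test adjusted p = 0.51) and Cdh5 of 0.25 (SE 0.080, adjusted p = 0.731). At 3 h Kdr had 0.33 (SE 0.11, adjusted p = 1). At 3 h the sign was above 0 for all 10 genes, and at 15 min it was below 0 for 9 of the 10. The median over all genes was -0.0018 at 3 h and -0.0058 at 15 min. Levels of the 10 genes are correlated over the libraries, so their signs are not independent of each other. Over all time points, with 12 against 12 mice, none of the 10 was called by edgeR or DESeq2, where 0.456% of all genes were. Of the 10, 1 was higher at an unadjusted p under 0.05, where 6.79% of all genes were, so the share in this direction was near that of all genes. Lower at the same limit were 6.51% of all genes, and the members lower at it are not counted here. Kdr had 0.18 (SE 0.085, adjusted p = 0.375), and Ly6c1 had -0.15 (SE 0.071, adjusted p = 0.375).

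**Figure D4:**
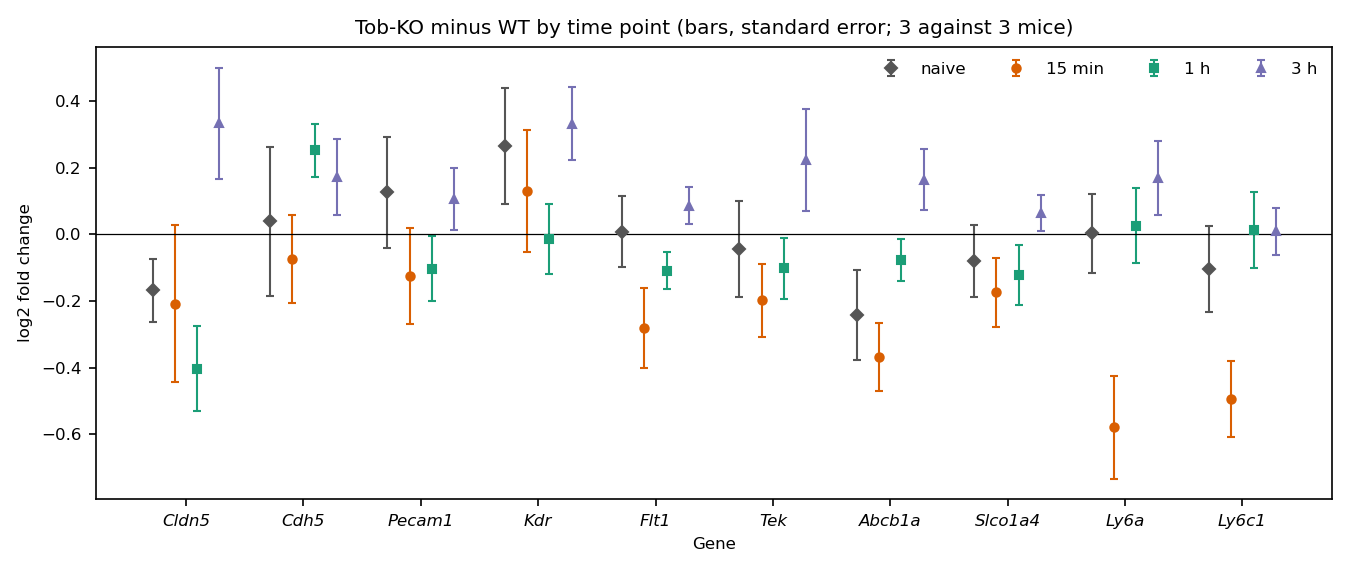
Log2 fold change of each of the 10 genes between libraries labelled Tob-KO and WT, Tob-KO minus WT, in naive mice (diamonds) and at 15 min (circles), 1 h (squares) and 3 h (triangles); bars are standard errors. The standard errors come from the quasi-likelihood fit. Ly6a at -0.58 and Ly6c1 at -0.49 are the lowest points and belong to 15 min.

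Whether the change from naive mice differed between genotypes was tested by an interaction term over 12 libraries. At 15 min this called 0.00526% of all genes and none of the 10, and DESeq2 called none of the 10. Unadjusted p was under 0.05 for 1 of the 10 and for 3.37% of all genes. The interaction was -0.58 for Ly6a (SE 0.21, unadjusted p = 0.0183, edgeR adjusted p = 0.999) and -0.38 for Ly6c1 (SE 0.19, adjusted p = 0.999). In WT mice, Ly6a changed from naive by 0.16 (SE 0.16) and Ly6c1 by 0.066 (SE 0.14). In libraries labelled Tob-KO, they changed by -0.42 (SE 0.11) and -0.32 (SE 0.10), with adjusted p of 0.242 and 0.281. For Cldn5 the interaction at 15 min was -0.031 (SE 0.30) and for Kdr -0.13 (SE 0.29), both on the log2 scale and smaller than their standard errors. At 1 h and 3 h the interaction called no gene of all those tested, 0 of the 10 by DESeq2 as well. Unadjusted p was under 0.05 for 0 of the 10 at 1 h, where it was for 3.68% of all genes. At 3 h it was for 2 of the 10 and for 4.66% of all genes. These 2 were Cldn5 (0.50, SE 0.21, adjusted p = 0.909) and Abcb1a (0.41, SE 0.18, adjusted p = 0.909).

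Across the 24 libraries, the Ly6 genes correlated less with the other 8 than those did among themselves. The 28 pairs among the 8 genes other than Ly6a and Ly6c1 had Pearson correlations of log2 CPM from 0.57 to 0.91, with a median of 0.79. Flt1 and Pecam1 were the closest pair (0.91), followed by Flt1 and Tek (0.90). Ly6a and Ly6c1 had a correlation of 0.88 with each other and of 0.025 to 0.51 with the other 8 genes, with a median of 0.32. The lowest was that of Kdr and Ly6c1, 0.025. With each gene centred on its group means, the medians were 0.66 for the 28 pairs and 0.41 for the Ly6 genes with the others, and the ranges overlapped, from -0.11 to 0.92 and from 0.033 to 0.62. The 24 points share depth, dissection and time point, so these values describe the libraries only.

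**Figure D5:**
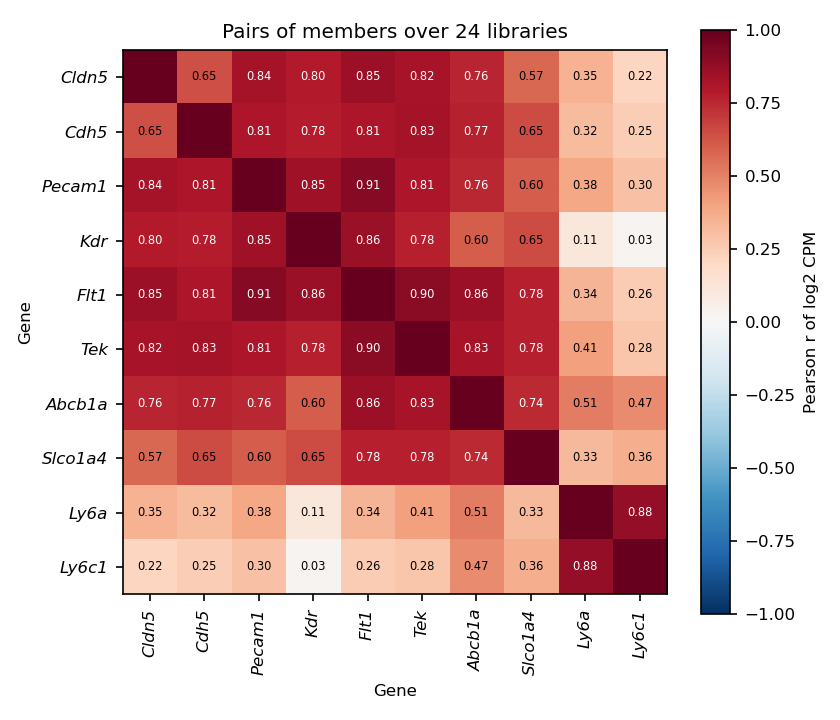
Pearson correlation of log2 CPM between each pair of the 10 genes over 24 libraries, with the value in each cell and the colour scale from -1 to 1. Ly6a and Ly6c1 correlate at 0.88 with each other and at most at 0.51 with the other 8 genes.

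The genes whose pattern over 24 libraries was most like the mean of the 10 were sought among 14439 other genes with a mean of at least 1 CPM. They were Cxcl12 (Pearson r = 0.93), Cyyr1 (0.88), Tie1 (0.87), Adgrf5 (0.87), Ptprb (0.87), Dll4 (0.86), Podxl (0.86) and Cd93 (0.85). With every gene centred on its group means, the first 8 were Cxcl12 (0.86), Eng (0.85), Adgrl4 (0.84), Wfdc1 (0.82), Podxl (0.82), Ctdnep1 (0.82), Mmrn2 (0.82) and A4galt (0.81). Cxcl12 is a chemokine and Tie1 a receptor related to Tek. The mean of the 28 other endothelial identity genes correlated with that of the 10 at 0.96. Notch and Wnt genes had 0.82, mural cell genes 0.75, VEGF and angiopoietin genes 0.70 and barrier transport and junction genes 0.63. Microglial genes had 0.62, astrocyte genes 0.58, blood cell genes 0.54, activation genes 0.47, fibroblast genes 0.44 and oligodendrocyte genes 0.19. Values below 0 were those of choroid plexus genes (-0.23), fenestrated endothelium (-0.30) and neuronal genes (-0.42).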

How the data were processed

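RNA of the hippocampus was measured in 24 mice, 1 library each. Per the labels, the authors made poly(A) libraries with a directional kit and 8 PCR cycles, sequenced them, aligned to GRCm38 with STAR 2.6.1d and counted with HTSeq 0.9.0. They deposited raw counts per gene. The annotation release and strand setting are not given in the sources used here. Columns were matched to mice by title, and 0 columns were unassigned.

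Differences between genotypes at 1 time point were tested with the exact test of edgeR 4.0.16 in R 4.3.3 (TMM, genes with at least 0.2 CPM in 2 libraries, p and FDR at most 0.05 and fold at least 2). All others used its quasi-likelihood test with an FDR of 0.05 and no fold limit. The exact test gave no standard error, so each one printed beside it is from the quasi-likelihood fit to the same libraries. P-values were adjusted by Benjamini-Hochberg over all genes tested. DESeq2 1.42.0, other filters and scalings, replicate numbers as a block and leaving out each library were the alternatives. Log2 CPM for scores and correlations used a prior count of 2. Other genes named were those called with the smallest p, up to 4 per list and comparison, and the 8 closest by correlation. Of the genes selected by this rule, 1 is not reported here. The 10 genes and the lists were chosen with earlier results of these data known. No 2 libraries of a group agreed within sampling noise (chi-square per degree of freedom 3.68 to 22.8). Libraries held 28847989 to 41595972 counts without molecular identifiers, so counting error is a lower limit of the error. Scripts were tested on simulated data.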

Additional observations from a re-analysis of the deposited data

How the results depend on the processing

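With 3 mice per group, small differences could not be detected, and all naive contrasts share the naive libraries. With scaling by library size alone, the median over all genes stayed within 0.026 (log2) of 0 in every comparison. The exact test of edgeR called 102 genes between genotypes at 15 min, DESeq2 35 and the quasi-likelihood test 0. With the same limits, the study itself reported fewer genes for this comparison than the 102 called here.

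Numbers of the 10 genes called moved as follows, and the cause was not tested. Without a fold limit, 1 was called between genotypes at 15 min. With a fold of at least 2, 0 were called at 15 min and at 1 h against naive mice and 0 from 15 min to 1 h, and the genes called at 15 min were 39 of all instead of 917. DESeq2 called 1 at 3 h against naive mice (4 of all genes, against 0), 7 from 15 min to 1 h (369 of all genes, against 100), 1 at 15 min in WT (38 of all, against 0) and 3 in libraries labelled Tob-KO (389 of all, against 5). Without the filter on low counts, 3 were called at 15 min in WT and 1 in libraries labelled Tob-KO (77 and 64 of all genes). With the dispersion from all 24 libraries, 1 was called in each (9 and 490 of all). Over all time points, DESeq2 called 292 of all genes between genotypes against 89, and 58 passed with the choroid plexus score as a covariate. With that score, 57 passed from 15 min to 1 h.

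When each library was left out in turn, 3 to 4 of the 10 genes were called at 15 min, 0 to 1 at 1 h against naive mice and 1 to 3 from 15 min to 1 h. Differences near 0 changed sign in these fits. That of Ly6c1 at 15 min in WT ranged from -0.052 to 0.20 on the log2 scale. The interaction at 15 min ranged from -0.29 to 0.25 for Cldn5 and from -0.32 to 0.12 for Kdr.

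Mice with the same replicate number in different groups share only that number. Of 28 pairs of groups, 0 had all 3 correlations of deviations above 0.1, and the correlations ran from -0.42 to 0.38. With the replicate number as a block, 3 of the 10 genes were called at 15 min against naive mice (802 of all genes) and 2 from 15 min to 1 h (69 of all). Pecam1 at 15 min then had an edgeR adjusted p of 0.0546 and Flt1 from 15 min to 1 h one of 0.0648. In libraries labelled Tob-KO, 2 were called at 15 min with the block (73 of all genes), Cldn5 and Kdr, with adjusted p of 0.022 and 0.0471. In WT, 0 were called with the block (18 of all genes).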
